A study of Mus musculus with 8 samples.

Results

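The keratin genes of the mouse were followed across 8 colonic tumors, each read on 1 Affymetrix array. They were taken as the probe sets whose annotation gave exactly 1 gene symbol made of Krt and a number, and 48 keratins were found among the 19938 genes measured, each with 1 probe set. Of these, 5 are the keratins of simple epithelia (Krt7, Krt8, Krt18, Krt19 and Krt20), 20 belong to squamous, glandular or other epithelia, 21 to hair follicle, hair shaft and nail, and 2 (Krt88 and Krt222) were in no list. Keratin symbols that end in a letter, such as Krt6a, fell outside the choice.

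The serrated group (3 arrays) held serrated tumors of the proximal colon from mice labelled K-rasG12Dint/Ink4a/Arf-/-, with an activated K-ras allele and without the Ink4a/Arf tumor suppressor locus, and its labels named no carcinogen. The K-rasG12Dint AOM group (3 arrays) held tumors of the distal colon induced with azoxymethane (AOM), a colon carcinogen, in mice with the K-ras allele alone. The LSL-K-rasG12D/+ AOM group (2 arrays, below LSL AOM) held AOM-induced tumors of the distal colon from mice whose mutant allele sits behind a lox-stop-lox cassette, a block to transcription that is lifted by a recombinase, and the sample titles call these tumors wt. All 3 groups thus carried a K-ras allele name in their genotype, and the labels named neither the recombinase nor the promoter that drives it. Colon segment, tumor type, Ink4a/Arf genotype and AOM changed together between the serrated group and both AOM groups and cannot be told apart. No normal colon was among the arrays. Nothing in the labels ties the samples to separate animals, so p-values measure only the spread between these samples, which may be technical.

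Values are log2 signals, and array medians over genes lay between 4.17 and 4.31. Serrated replicate 1 stood apart by a narrower spread of levels, with gene levels at an SD of 1.77, where the other 7 arrays had SDs of 2.00 to 2.13. Cdkn2a, the gene of the Ink4a/Arf locus, averaged 3.72 ± 0.33 in serrated tumors (SD, n = 3), 5.85 ± 0.42 in K-rasG12Dint AOM tumors (SD, n = 3) and 3.93 ± 0.49 in LSL AOM tumors (SD, n = 2). The serrated arrays thus overlapped the LSL AOM arrays, and whether the probes lie in the deleted part was not given in the sources used here. Groups were compared with limma on all genes, and a gene passed where its Benjamini-Hochberg adjusted p was under 0.05. Errors beside differences are standard errors, and errors beside levels are SDs. These are bulk samples, in which fewer cells of a type and less RNA per cell cannot be told apart. The arrays carry no detection call, so a level under the array median may be background. Levels of different genes come from different probes and are not set against each other.

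Keratins are the intermediate filament proteins of epithelial cells. A filament is built from pairs of 1 acidic type I keratin and 1 basic type II keratin, and which pair a cell makes marks its kind of epithelium: Krt8 with Krt18, Krt19 and Krt20 in the simple epithelium of the gut, Krt5 with Krt14 in the basal layer of stratified epithelia, Krt4 with Krt13 in the moist squamous mucosa of mouth and esophagus, and Krt1 with Krt10 in cornifying epidermis. The filaments are anchored to desmosomes and hemidesmosomes and protect cells from mechanical stress. In the mouse the type I genes other than Krt18 lie in a cluster on chromosome 11 and the type II genes, with Krt18, in a cluster on chromosome 15, and of the 48 keratins measured 25 were on chromosome 11 and 23 on chromosome 15.

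The promoters of Krt20, Krt36 and Krt84 are shown because these were the keratins with the largest rise and the largest falls that passed in any comparison. The last 120 bases before the annotated start are given 5′ to 3′ on the gene's strand, from RefSeq on build GRCm38.p6. All these genes lie on the minus strand, Krt20 at chr11:99438154-99438273, Krt36 at chr11:100105627-100105746 and Krt84 at chr15:101532821-101532940. Capitals mark matches to the motifs searched.
Krt20: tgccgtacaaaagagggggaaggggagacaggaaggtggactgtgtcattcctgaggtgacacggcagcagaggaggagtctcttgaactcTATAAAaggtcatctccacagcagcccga
Krt36: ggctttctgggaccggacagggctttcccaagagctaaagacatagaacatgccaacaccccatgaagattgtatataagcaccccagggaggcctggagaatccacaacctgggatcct
Krt84: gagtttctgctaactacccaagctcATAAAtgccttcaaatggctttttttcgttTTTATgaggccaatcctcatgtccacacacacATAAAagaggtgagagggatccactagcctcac

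The motifs were TATAAA on the gene strand, the core of a TATA box, and on both strands TTTAT, the core bound by CDX factors of the gut, CTTTGA and CTTTGT, cores of LEF/TCF sites, and TGANTCA, an AP-1 site. Every TATAAA match holds ATAAA, which is TTTAT read on the opposite strand. Each promoter with TATAAA is thus also counted for TTTAT. Krt20 carried TATAAA starting 29 bases before the start, overlapped by a TTTAT match on the opposite strand. Krt84 carried 3 TTTAT matches and no TATAAA in the bases shown, and Krt36 carried none of the motifs there. Over the 250 bases before the start, TATAAA was found in 14 of 36 keratin promoters (38.9%) and in 7.59% of all 32851 promoters, and TTTAT in 29 (80.6%) and in 37.3%. The TTTAT shares include every promoter with TATAAA, so they are not separate from the TATAAA shares. The shares for CTTTGA were 22.2% of keratin and 13.8% of all promoters, for CTTTGT 11.1% and 16.5%, and for TGANTCA 5.56% and 6.75%. The 36 promoters belong to 35 of the 48 keratins.

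All 5 keratins of simple epithelia were above the array median on 8 of 8 arrays, as were 8 keratins in all. Between serrated and AOM tumors, Krt20 rose and the other 4 did not pass the test.

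Krt8, the type II keratin of simple epithelia, had log2 levels of 11.80, 12.02 and 12.09 in serrated tumors (replicates 1 to 3), 11.70, 11.76 and 11.56 in K-rasG12Dint AOM tumors, and 11.67 and 11.60 in LSL AOM tumors. The serrated arrays were all above the AOM arrays by a small step, and the difference of 0.32 ± 0.14 did not pass (limma, adjusted p = 0.206), with a 95% interval from -0.003 to 0.64. Its type I partner Krt18 had levels of 9.82, 10.61 and 10.31 in serrated tumors, 10.12, 10.32 and 9.80 in K-rasG12Dint AOM tumors, and 9.99 and 9.98 in LSL AOM tumors. The groups overlapped, and the difference was 0.21 ± 0.21 (limma, adjusted p = 0.556, 95% interval -0.26 to 0.69).

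Krt19, a type I keratin of simple and ductal epithelia, had levels of 11.17, 11.58 and 11.88 in serrated tumors, 11.54, 11.58 and 11.34 in K-rasG12Dint AOM tumors, and 11.65 and 11.39 in LSL AOM tumors. The serrated arrays spanned the AOM arrays on both sides, and the difference was 0.04 ± 0.19 (limma, adjusted p = 0.918, 95% interval -0.39 to 0.47). Krt7, a type II keratin of ducts and some glands, had levels of 8.44, 9.93 and 10.02 in serrated tumors, 9.76, 9.81 and 9.90 in K-rasG12Dint AOM tumors, and 9.96 and 9.76 in LSL AOM tumors. Serrated replicate 1, the array with the narrower spread of gene levels, was the low one and the other 7 lay close together; the part of that spread was not tested. The difference of -0.38 ± 0.34 did not pass (limma, adjusted p = 0.520) and was 0.13 without serrated replicate 1. For Krt7, Krt8, Krt18 and Krt19 the 95% intervals of the difference between serrated and AOM tumors stayed within -1.14 to 0.69 on the log2 scale.

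Krt20 is a type I keratin of differentiated cells at the gut surface. It had levels of 10.24, 10.45 and 9.97 in serrated tumors, 8.12, 6.19 and 8.36 in K-rasG12Dint AOM tumors, and 7.19 and 8.44 in LSL AOM tumors. The lowest serrated array was above the highest AOM array, and the serrated arrays were close together (10.22 ± 0.24, n = 3) while the AOM arrays were spread (7.56 ± 1.19, n = 3, and 7.82 ± 0.88, n = 2). Krt20 rose in serrated tumors by 2.53 ± 0.49 against the mean of both AOM groups, 5.79-fold (limma, adjusted p = 0.0162, 95% interval 1.41 to 3.65). Without serrated replicate 2 the difference was 2.42 with an adjusted p of 0.0792, and without LSL AOM replicate 1 it was 2.22 with an adjusted p of 0.0637. The fit gives all groups 1 spread, which for Krt20 is wider than that of the serrated arrays alone.

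**Figure D1:**
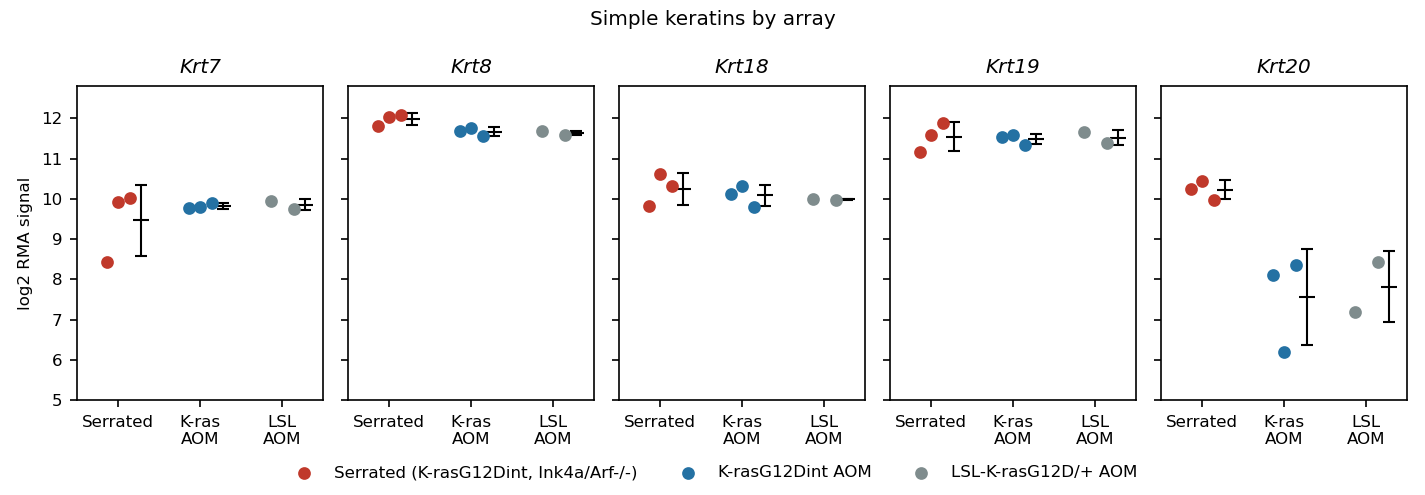
Log2 level (vertical axis) of the 5 keratins of simple epithelia on each array, by tumor group, serrated on the left. Dots are arrays and bars the group mean with SD; Krt20 is the panel in which serrated arrays (9.97 to 10.45) stand clear of the AOM arrays (6.19 to 8.44), and Krt7 shows the low serrated array at 8.44.

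Between serrated and AOM tumors the median difference of 9 genes listed for surface colonocytes was 2.83, against 0.04 over all genes. Of these genes 77.8% passed, against 9.38% of all genes, with 7 risen, 0 fallen and 2 not passing. They included Tmigd1, an adhesion protein of the brush border, at 4.28 ± 0.37 (limma, adjusted p = 0.000537), Mep1a, a subunit of the brush border protease meprin, at 4.02 ± 0.45 (limma, adjusted p = 0.00143), Slc26a3, the chloride-bicarbonate exchanger, at 4.64 ± 0.88 (limma, adjusted p = 0.0145), and Ceacam1, a surface adhesion protein, at 0.93 ± 0.18 (limma, adjusted p = 0.0148). The mean level of the 9 genes was 9.26, 9.42 and 9.02 in serrated tumors, 6.35, 5.35 and 7.45 in K-rasG12Dint AOM tumors, and 6.82 and 6.25 in LSL AOM tumors. Within the AOM arrays the order was only in part that of Krt20. K-rasG12Dint AOM replicate 2 was lowest in both, whereas LSL AOM replicate 2, the highest AOM array for Krt20, had the second lowest mean of this list. Its part in the Krt20 difference was not tested.

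Most general epithelial genes did not pass, but the list was called more often than genes at large. Of 12 genes listed for intestinal epithelial content, 2 rose, 1 fell and 9 did not pass, with a median difference of 0.22. That is 25% called, against 9.38% of all genes. The serrated and AOM arrays did not overlap for 5 of the 12, against 16.2% of all genes. Epcam, an adhesion protein of all gut epithelium, differed by 0.05 ± 0.16 (limma, adjusted p = 0.863) and Cdh1, E-cadherin, by -0.01 ± 0.15 (limma, adjusted p = 0.974). Cdx2, a homeobox factor of intestinal identity, rose by 2.56 ± 0.27 (limma, adjusted p = 0.00130) and Cdh17, an intestinal cadherin, by 0.70 ± 0.17 (limma, adjusted p = 0.0371), while the tight junction gene Cldn4 fell by 1.27 (limma, adjusted p = 0.00967). Cdx1, the related homeobox gene, differed by 0.17 ± 0.19 (limma, adjusted p = 0.598). That average joins opposite differences, neither of which passed. Cdx1 differed by 0.63 ± 0.21 from K-rasG12Dint AOM tumors (limma, adjusted p = 0.113) and by -0.29 ± 0.23 from LSL AOM tumors (limma, adjusted p = 0.537). The mean of the 12 genes was 9.03 to 9.06 on the serrated arrays and 8.55 to 8.75 on the AOM arrays other than LSL AOM replicate 1, which lay between them.

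Over the whole family, 3 of 48 keratins rose (Krt20, Krt79 and Krt27), 1 fell (Krt36) and 44 did not pass between serrated and AOM tumors. That is 8.33% of the family, against 9.38% of all genes (3.62% higher and 5.76% lower), so the family was called about as often as genes at large. The median difference was 0.16 over the keratins and 0.04 over all genes. The serrated arrays did not overlap the AOM arrays for 10 of 48 keratins, against 16.2% of all genes. Krt8, Krt20, Krt27, Krt74, Krt79 and Krt222 lay above, as did 7.24% of all genes, and Krt23, Krt36, Krt84 and Krt90 below, as did 8.93%. By class, 1 of 5 simple keratins, 1 of 20 keratins of squamous and glandular epithelia and 2 of 21 hair and nail keratins passed. The family's count was 1 without serrated replicate 2 and 2 without either LSL AOM array. Of the 48 keratins, 26 were below the array median on all 8 arrays.

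**Figure D2:**
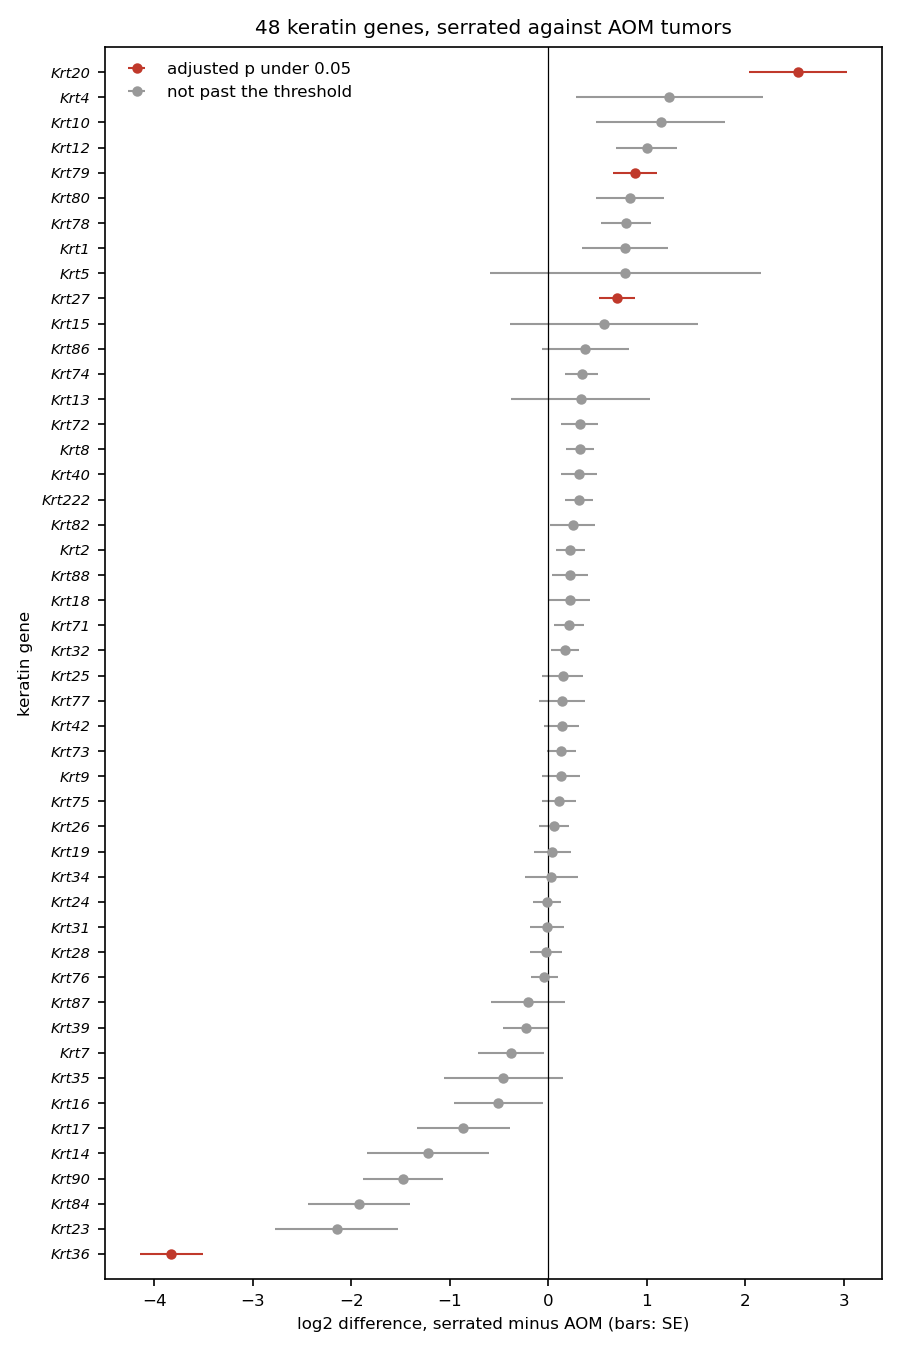
Log2 difference, serrated minus the mean of both AOM groups (horizontal axis), with its standard error for each of the 48 keratins, and the keratins that passed an adjusted p under 0.05 in red. Krt36 at -3.83 and Krt20 at 2.53 lie far to either side of the family's median of 0.16.

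Krt36 had the largest difference of the family. It is a type I keratin of the hard kind, known from nail, hair and the filiform papillae of the tongue. Its levels were 3.22, 2.92 and 2.60 in serrated tumors, 5.69, 7.05 and 6.61 in K-rasG12Dint AOM tumors, and 7.37 and 6.68 in LSL AOM tumors. All serrated arrays were below their array medians and all AOM arrays above theirs, with no overlap. Krt36 fell by 3.83 in serrated tumors, 14.2-fold on the deposited signals, of which the serrated ones may be background (limma, SE 0.32, adjusted p = 0.000494), and this call held in all 15 alternative fits, where the difference ran from -4.02 to -3.66. The genes on either side of it on chromosome 11 did not pass. Krt35, a type I keratin of the hair shaft, differed by -0.46 ± 0.61 (limma, adjusted p = 0.671) and Krt13 by 0.33 ± 0.70 (limma, adjusted p = 0.798).

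Krt84 is a type II keratin of the hard kind, known from nail and tongue. It had levels of 2.68, 2.94 and 2.96 in serrated tumors, 3.98, 5.25 and 6.44 in K-rasG12Dint AOM tumors, and 5.09 and 3.60 in LSL AOM tumors. The serrated arrays were all below the AOM arrays, which were spread over 2.85 on the log2 scale. The difference of -1.92 ± 0.52 against both AOM groups did not pass (limma, adjusted p = 0.0532). Against the K-rasG12Dint AOM tumors alone Krt84 fell by 2.36 (limma, SE 0.58, adjusted p = 0.0471), a call lost in 8 of 16 alternative fits, with adjusted p up to 0.156.

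Krt90 lies in the type II cluster, next to Krt82 and Krt75 in gene order. Its levels were 4.34, 3.85 and 3.69 in serrated tumors, 5.45, 5.03 and 6.97 in K-rasG12Dint AOM tumors, and 5.32 and 4.78 in LSL AOM tumors. Again every serrated array was below every AOM array, and K-rasG12Dint AOM replicate 3 was the highest by 1.52. The difference of -1.47 ± 0.41 against both AOM groups did not pass (limma, adjusted p = 0.0562), and against the K-rasG12Dint AOM tumors alone Krt90 fell by 1.86 (limma, SE 0.45, adjusted p = 0.0459), a call likewise lost in 8 of 16 alternative fits, with adjusted p up to 0.150.

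Krt23, a type I keratin that lies next to Krt20 in gene order, had levels of 3.54, 6.55 and 6.06 in serrated tumors, 7.81, 8.04 and 6.83 in K-rasG12Dint AOM tumors, and 7.48 and 7.54 in LSL AOM tumors. All serrated arrays were below all AOM arrays, so that Krt20 and its neighbour Krt23 differed in opposite directions. The Krt23 difference of -2.15 ± 0.62 did not pass (limma, adjusted p = 0.0651). Without serrated replicate 1, the low array, it was smaller at -1.23 and passed (limma, adjusted p = 0.0476), and the remaining serrated arrays lay closer together.

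**Figure D3:**
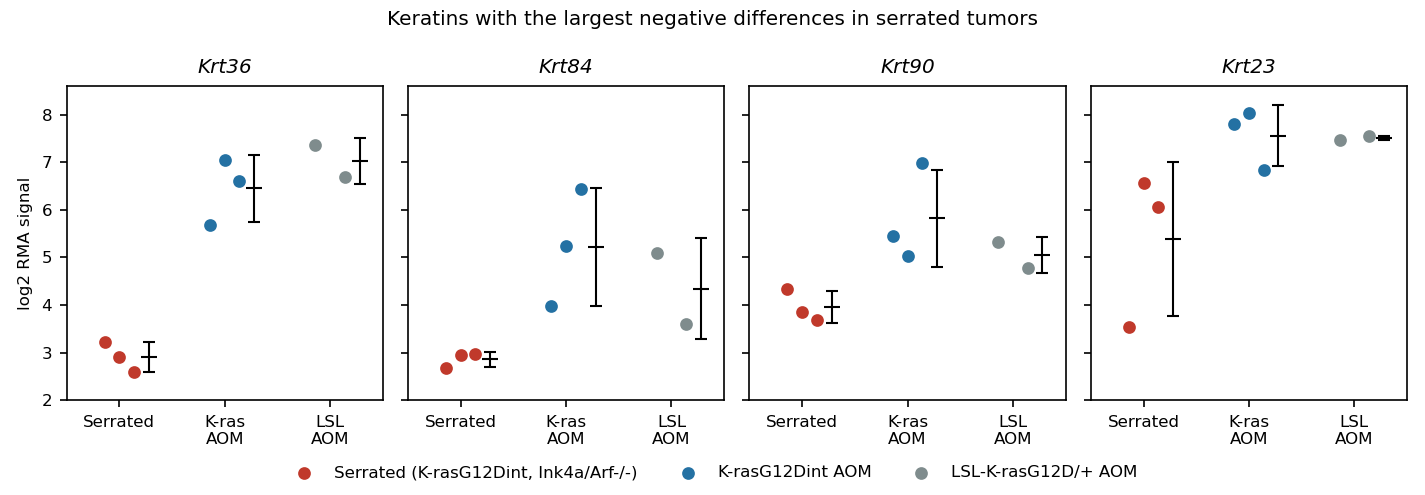
Log2 level (vertical axis) of the keratins whose serrated arrays all lay below the AOM arrays, by tumor group with serrated on the left. Dots are arrays and bars the group mean with SD. The Krt36 serrated arrays (2.60 to 3.22) are far below the AOM arrays (5.69 to 7.37), while Krt84 and Krt90 have wide AOM groups and Krt23 a wide serrated group.

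The other calls were on dim genes. Krt79, a type II keratin of the hair canal and sebaceous duct in mouse skin, had levels of 3.65, 4.02 and 4.55 in serrated tumors, 3.05, 3.44 and 3.36 in K-rasG12Dint AOM tumors, and 2.93 and 3.28 in LSL AOM tumors. The groups did not overlap, but the highest serrated array was the only one above its array median. Krt79 rose by 0.88 ± 0.22 (limma, adjusted p = 0.0413). Krt27, a type I keratin of the inner root sheath of the hair follicle, had levels of 3.51, 3.58 and 3.96 in serrated tumors, 3.21, 2.83 and 3.16 in K-rasG12Dint AOM tumors, and 2.69 and 3.13 in LSL AOM tumors. It was below the array median everywhere and rose by 0.70 ± 0.18 (limma, adjusted p = 0.0478). Both calls were lost in most alternative fits, Krt79 in 8 of 14 and Krt27 in 9 of 14.

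**Figure D4:**
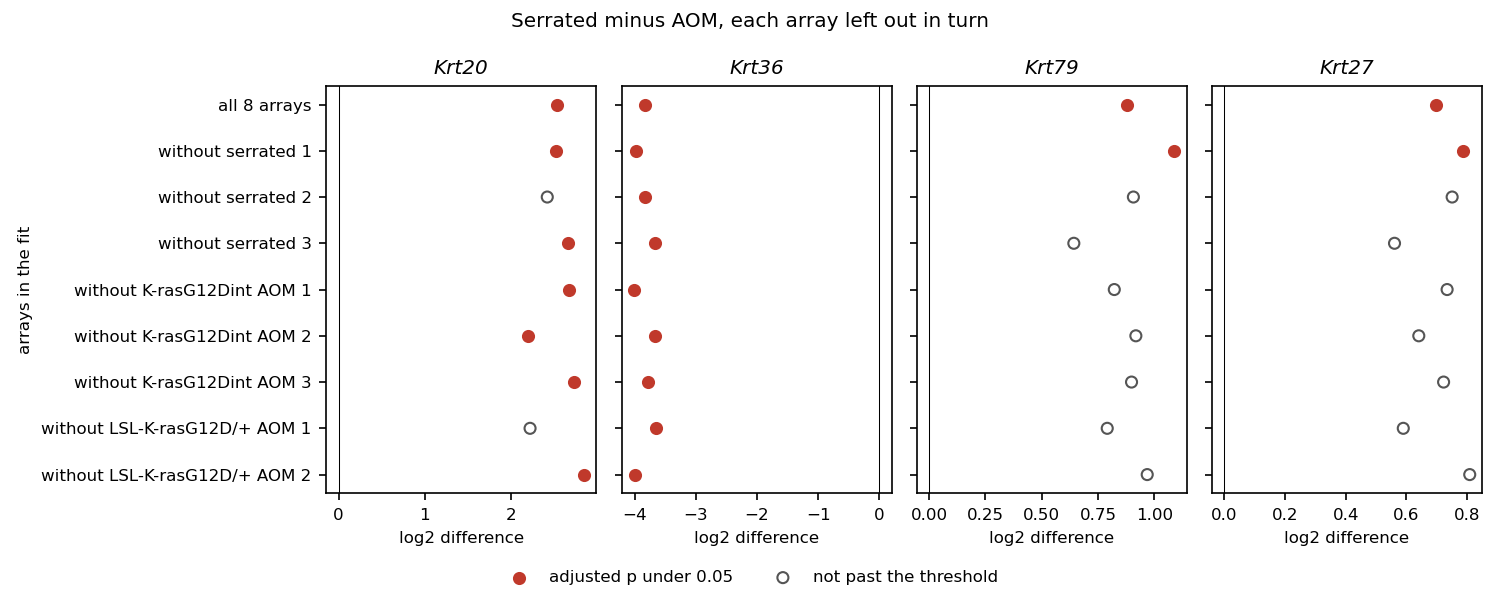
Log2 difference, serrated minus AOM (horizontal axis), for Krt20, Krt36, Krt79 and Krt27 with all arrays and with each array left out in turn; filled red points passed an adjusted p under 0.05. Krt36 is past the threshold in every row, Krt20 in all but the rows without serrated replicate 2 and without LSL AOM replicate 1.

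Of the 20 keratins of squamous and glandular epithelia Krt79 passed between serrated and AOM tumors and the other 19 did not, and 1 array stood out most in them. Serrated replicate 2 was the highest of the 8 arrays for 14 of 48 keratins (29.2%), against 12.5% of all genes. It was the highest by more than 1 on the log2 scale for 7 keratins (14.6%), namely Krt1, Krt4, Krt5, Krt10, Krt13, Krt15 and Krt80, against 0.431% of all genes. All 7 belong to the 20 keratins of squamous and glandular epithelia, whose mean level was 3.60, 5.06 and 3.45 in serrated tumors, 3.72, 4.13 and 4.06 in K-rasG12Dint AOM tumors, and 3.67 and 4.03 in LSL AOM tumors. K-rasG12Dint AOM replicate 3 was the highest by more than 1 for 6.25% of the 48 keratins, against 0.186% of all genes. LSL AOM replicate 2 was so for 4.17%, against 0.0953% of all genes. For Krt1 the values are given because it is the partner of Krt10, a choice made after its levels were seen.

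Krt4, the type II keratin of the moist squamous mucosa, had the widest gap of the family. It had levels of 3.18, 7.50 and 2.57 in serrated tumors, 3.55, 3.15 and 3.52 in K-rasG12Dint AOM tumors, and 3.10 and 2.84 in LSL AOM tumors. The array of serrated replicate 2 was 3.95 above the next and the other 7 were below their array medians. Krt13, its type I partner, had levels of 4.76, 8.35 and 5.72 in serrated tumors, 5.44, 6.62 and 6.54 in K-rasG12Dint AOM tumors, and 5.50 and 5.87 in LSL AOM tumors. Krt13 was above the array median everywhere, and serrated replicate 2 was highest by 1.73.

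The epidermal pair followed on the same array. Krt10 had levels of 3.82, 6.91 and 3.66 in serrated tumors, 3.60, 3.41 and 3.75 in K-rasG12Dint AOM tumors, and 3.58 and 3.87 in LSL AOM tumors. Its partner Krt1 had levels of 2.86, 4.70 and 2.53 in serrated tumors, 2.86, 2.53 and 2.46 in K-rasG12Dint AOM tumors, and 2.42 and 2.68 in LSL AOM tumors. Both were below the array median on the other 7 arrays.

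Among keratins of the basal layer the pattern was less even. Krt5 had levels of 4.33, 8.73 and 2.82 in serrated tumors, 2.86, 6.92 and 5.71 in K-rasG12Dint AOM tumors, and 2.64 and 5.10 in LSL AOM tumors. Its type I partner Krt14 had levels of 4.65, 7.20 and 4.88 in serrated tumors, 5.65, 7.63 and 6.52 in K-rasG12Dint AOM tumors, and 7.12 and 6.88 in LSL AOM tumors. Krt5 and Krt14 were both high on serrated replicate 2 and on K-rasG12Dint AOM replicate 2, but the LSL AOM arrays were high for Krt14 and not uniformly for Krt5. Krt15, a basal keratin of the esophagus and the hair follicle, had levels of 4.51, 8.67 and 3.71 in serrated tumors, 4.99, 4.69 and 4.58 in K-rasG12Dint AOM tumors, and 4.96 and 5.79 in LSL AOM tumors, so that serrated replicate 2 was 2.88 above the next array.

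Krt16 and Krt17, keratins of wounded and fast-growing epidermis, were not highest on serrated replicate 2. Krt6a, a wound keratin outside the choice, was highest there at 6.55, with K-rasG12Dint AOM replicate 2 next at 5.89. Krt6b was highest on K-rasG12Dint AOM replicate 2, at 6.46 against 5.46 on serrated replicate 2. Krt16 had levels of 2.10, 1.82 and 2.02 in serrated tumors, 1.69, 4.02 and 3.37 in K-rasG12Dint AOM tumors, and 2.19 and 1.71 in LSL AOM tumors, and was below the array median everywhere. Krt17 had levels of 3.93, 5.30 and 3.63 in serrated tumors, 4.17, 5.14 and 4.58 in K-rasG12Dint AOM tumors, and 4.85 and 6.49 in LSL AOM tumors, and LSL AOM replicate 2 was highest by 1.19. Krt14, Krt16 and Krt17 are close in sequence, so their levels on separate probes are uncertain where transcripts of one could bind the probes of another. Krt80, a type II keratin of differentiating epithelia, had levels of 4.58, 6.12 and 4.95 in serrated tumors, 4.16, 4.48 and 4.98 in K-rasG12Dint AOM tumors, and 4.06 and 4.42 in LSL AOM tumors. Krt12, the type I keratin of the cornea, had levels of 5.51, 5.90 and 4.58 in serrated tumors, 4.94, 4.17 and 4.30 in K-rasG12Dint AOM tumors, and 4.08 and 4.33 in LSL AOM tumors. Krt80 was highest on serrated replicate 2 by 1.14, and Krt12 overlapped between serrated and AOM tumors through serrated replicate 3.

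None of Krt1, Krt4, Krt5, Krt10, Krt12, Krt13, Krt14, Krt15, Krt16, Krt17 and Krt80 passed against the AOM tumors. The largest positive differences among them were 1.23 ± 0.95 for Krt4 (limma, adjusted p = 0.457), 1.14 ± 0.66 for Krt10 (limma, adjusted p = 0.321), 0.998 ± 0.31 for Krt12 (limma, adjusted p = 0.0789) and 0.82 ± 0.35 for Krt80 (limma, adjusted p = 0.182). Krt14 had the largest negative one beside Krt23 and Krt90, at -1.22 ± 0.62 (limma, adjusted p = 0.259). Without serrated replicate 2, the differences of Krt4, Krt5, Krt13 and Krt15 turned to -0.31, -0.94, -0.71 and -0.95, with adjusted p of 0.501, 0.680, 0.371 and 0.150 in limma, and that of Krt10 shrank to 0.08 (limma, adjusted p = 0.843).

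**Figure D5:**
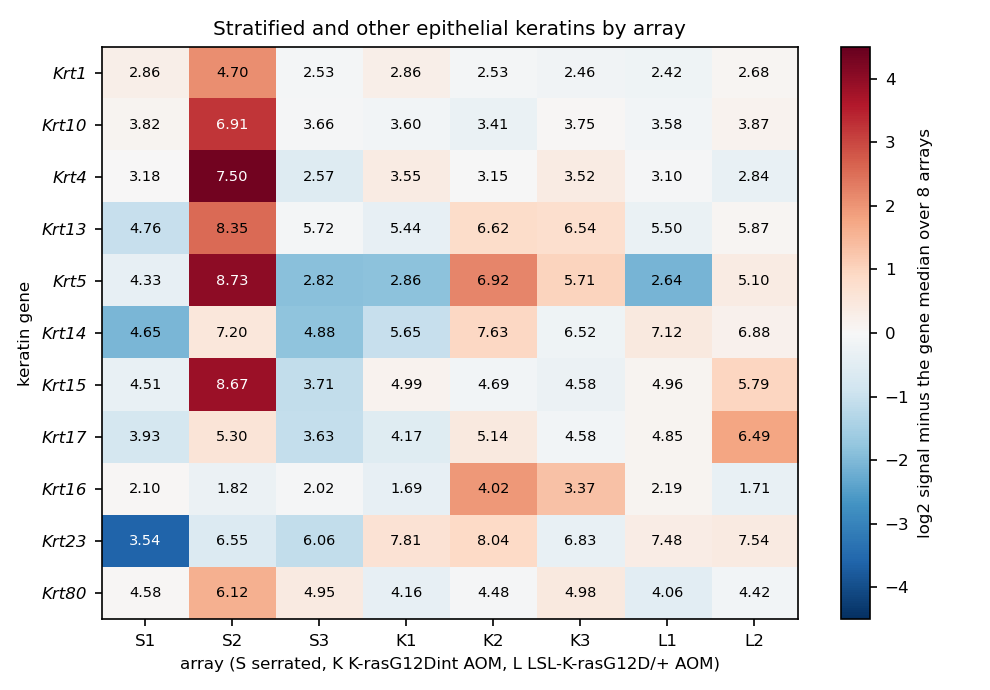
Log2 level (numbers) of 11 keratins of stratified and other epithelia (rows) on each array (columns, serrated on the left), coloured by the level minus the gene's median over the 8 arrays. The column of serrated replicate 2 is high for Krt1, Krt10, Krt4, Krt13, Krt5, Krt15 and Krt80, while Krt16 is high on K-rasG12Dint AOM replicates 2 and 3 and Krt17 on LSL AOM replicate 2.

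Markers of squamous epithelium other than keratins were read on the same arrays. Of 21 such genes measured, 3 were highest on serrated replicate 2, as were 12.5% of all genes. For 2 of them (Sprr3 and Calm4) the gap was more than 1, as for 0.431% of all genes. K-rasG12Dint AOM replicate 2 was highest for 5 (11.1% of all genes). Serrated replicate 3 and K-rasG12Dint AOM replicate 3 were highest for 4 each (12.9% and 6.6% of all genes). Gaps of more than 1 were also found for Sox2, Tgm3 and Lgals7, each on an AOM array. Their mean level was 4.06, 5.24 and 4.26 in serrated tumors, 4.24, 4.93 and 4.88 in K-rasG12Dint AOM tumors, and 3.97 and 3.91 in LSL AOM tumors. Sprr3, a cornified envelope protein of moist squamous mucosa, had levels of 3.23, 6.30 and 2.66 in serrated tumors, 3.19, 3.41 and 2.72 in K-rasG12Dint AOM tumors, and 3.16 and 3.10 in LSL AOM tumors. Trp63, the p63 factor that defines stratified epithelium, was 3.91, 4.43 and 3.06 in serrated tumors, 3.48, 3.53 and 3.67 in K-rasG12Dint AOM tumors, and 3.13 and 3.58 in LSL AOM tumors. Lor, loricrin of the cornified envelope, was between 2.05 and 2.92 on all 8 arrays. The part of squamous cells in the keratin levels of serrated replicate 2 was not tested.

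Between serrated and AOM tumors, 2 of the 21 squamous genes rose, 1 fell and 18 did not pass. That is 14.3% called, against 9.38% of all genes. Sprr1a, a cornified envelope precursor, rose by 2.46 ± 0.29 (limma, adjusted p = 0.00180) and Ivl, involucrin, by 3.27 ± 0.78 (limma, adjusted p = 0.0341), while Tgm1, the transglutaminase that links the envelope, fell by 1.40 (limma, adjusted p = 0.0362). Ivl had levels of 3.25, 6.67 and 7.30 in serrated tumors, 2.76, 2.79 and 2.32 in K-rasG12Dint AOM tumors, and 2.24 and 2.39 in LSL AOM tumors. It was thus high on serrated replicates 2 and 3. The 7 squamous and glandular keratins highest on replicate 2 by more than 1 did not exceed the highest AOM array on replicate 3. The median difference over the 21 squamous genes was 0.07.

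Among hair and nail keratins other than Krt36, Krt84 and Krt27, single AOM arrays stood out by more than 1 for Krt35 and Krt87. Serrated replicate 1 was the highest array for 7 of all 21 hair and nail keratins, 0 of them by more than 1. It was the highest for 27.9% of all genes. Krt35 had levels of 3.84, 3.33 and 3.12 in serrated tumors, 2.87, 2.93 and 3.06 in K-rasG12Dint AOM tumors, and 3.16 and 6.48 in LSL AOM tumors. Krt87 had levels of 4.76, 4.71 and 4.73 in serrated tumors, 4.87, 4.74 and 6.54 in K-rasG12Dint AOM tumors, and 4.32 and 4.68 in LSL AOM tumors. The high array was LSL AOM replicate 2 for Krt35, by 2.64, and K-rasG12Dint AOM replicate 3 for Krt87, by 1.66. K-rasG12Dint AOM replicate 3 was also the highest for Krt84 and Krt90. Krt31, a hair shaft keratin, lay between 2.68 and 3.55 on all 8 arrays.

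Against the K-rasG12Dint AOM tumors alone, 1 of 48 keratins rose and 3 fell, against 6.45% of all genes called (2.46% higher and 3.99% lower). Krt20 rose by 2.67 ± 0.55, 6.34-fold (limma, adjusted p = 0.0257), and Krt36 fell by 3.54 (limma, SE 0.35, adjusted p = 0.00151), beside Krt84 and Krt90 as given above. The Krt20 call was lost without K-rasG12Dint AOM replicate 1 (difference 2.95, limma adjusted p = 0.0516) and without serrated replicate 2 (difference 2.55, limma adjusted p = 0.103). The count of keratins passing was 1 without serrated replicate 2 and 2 without either LSL AOM array, which enters this contrast only through the shared spread.

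Against the LSL AOM tumors alone, 0 of 48 keratins rose and 1 fell, against 5.71% of all genes called (2.31% higher and 3.4% lower). Krt36 fell by 4.12 (limma, SE 0.39, adjusted p = 0.00143). Krt20 differed by 2.40 ± 0.61, 5.29-fold, and did not pass (limma, adjusted p = 0.0567, unadjusted 95% interval 1.01 to 3.79). Krt84 differed by -1.48 ± 0.65 (limma, adjusted p = 0.241) and Krt90 by -1.09 ± 0.50 (limma, adjusted p = 0.271). These comparisons share the serrated arrays, so their values are given side by side and are not independent. The count of keratins passing was 2 without K-rasG12Dint AOM replicate 2, serrated replicate 1 or LSL AOM replicate 1, and 4 without serrated replicate 3.

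Between the K-rasG12Dint AOM and LSL AOM tumors, 0 of 48 keratins passed in limma, as did 0% of all genes. At an unadjusted p under 0.05 there was 1 keratin, against 8.36% of all genes. That keratin was Krt35, at -1.87 ± 0.75 (limma, adjusted p = 0.549), and its difference rests on LSL AOM replicate 2, since it was -0.21 without that array and -3.53 without LSL AOM replicate 1 (limma, adjusted p = 0.0436). Krt20 differed by -0.26 ± 0.61 (limma, adjusted p = 0.998, 95% interval -1.65 to 1.13) and Krt36 by -0.58 ± 0.39 (limma, adjusted p = 0.832, 95% interval -1.47 to 0.32). The largest positive differences were 1.30 ± 1.70 for Krt5 (limma, adjusted p = 0.975) and 1.07 ± 0.56 for Krt16 (limma, adjusted p = 0.706). Krt87 differed by 0.88 ± 0.47 (limma, adjusted p = 0.715) and Krt17 by -1.04 ± 0.59 (limma, adjusted p = 0.747). Over the keratins the median difference was 0.05, against 0.01 over all genes.

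The genes of proteins that anchor keratin filaments were read beside the family. Of 20 linkers and binding partners, 3 rose, 1 fell and 16 did not pass between serrated and AOM tumors, with a median of 0.13. That is 20% called, against 9.38% of all genes. Dst, dystonin, whose epithelial form ties keratins to hemidesmosomes, had levels of 6.43, 6.82 and 6.63 in serrated tumors, 4.76, 4.97 and 5.48 in K-rasG12Dint AOM tumors, and 4.68 and 4.49 in LSL AOM tumors. The groups were well apart, and Dst rose by 1.80 ± 0.20 (limma, adjusted p = 0.00133). Plec, plectin, the linker to hemidesmosomes and actin, rose by 0.79 ± 0.15 (limma, adjusted p = 0.0166), and Pof1b, an actin-binding protein of epithelial junctions, by 1.37 ± 0.29 (limma, adjusted p = 0.0222). Pkp1, the desmosomal plakophilin of stratified epithelia, fell by 1.10 (limma, adjusted p = 0.00935).

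Of 13 other intermediate filament genes, 0 rose, 2 fell and 11 did not pass, so that 15.4% were called, against 9.38% of all genes. Vim, vimentin, the filament of mesenchymal cells, had levels of 7.61, 7.84 and 8.28 in serrated tumors, 9.49, 9.86 and 9.72 in K-rasG12Dint AOM tumors, and 9.09 and 10.18 in LSL AOM tumors. It fell by 1.75 (limma, SE 0.27, adjusted p = 0.00561), and Lmna, the nuclear lamin A gene, fell by 0.97 (limma, SE 0.21, adjusted p = 0.0234). Markers of other cells were read beside them. Of 10 stromal genes 0 rose and 3 fell (30% called), the collagens Col1a1, Col1a2 and Col3a1, with a median of -1.004. The mean of the list was 6.07 to 7.05 on the serrated arrays and 6.70 to 7.83 on the AOM arrays. Of 6 leukocyte genes 0 rose and 2 fell (33.3% called), Cd68 and Csf1r of macrophages, with a median of -0.66. Their list mean was 4.07 to 4.87 on the serrated arrays and 4.63 to 5.22 on the AOM arrays. Of 7 genes of mesothelium, the other keratin-bearing lining of the gut wall, 0 rose and 1 fell (14.3% called). That gene was Msln, mesothelin, which fell by 1.24 (limma, adjusted p = 0.0408). Differences were positive for 6 of the 7 genes, with a median of 0.19. Msln fell by 2.24 against K-rasG12Dint AOM tumors (limma, adjusted p = 0.00844) and differed by -0.23 ± 0.39 from LSL AOM tumors (limma, adjusted p = 0.775). The mean of that list was 3.40 to 3.70 on the serrated arrays and 2.94 to 3.60 on the AOM arrays, and its defining genes Upk3b and Wt1 were between 2.93 and 4.20 on all arrays. The part of stroma, leukocytes or mesothelium in the keratin differences was not tested.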

How the data were processed

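Total RNA of 8 tumors was hybridised to Affymetrix arrays after Qiagen RNeasy extraction and biotin labelling, per the labels' protocols. The deposited values are log2 signals for which the submitters' processing notes name GCOS and RMA, a robust average over the probes of a probe set, run by the authors; the sources used here give no version, setting or genome build. RMA pools the probes of a probe set and compresses differences of dim genes, and the number of arrays limits the precision that can be stated. Of 35557 probe sets, 21789 carried exactly 1 gene symbol, and the one with the highest mean over 8 arrays stood for each of 19938 genes. No dim gene was left out and no value was rescaled.

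Groups came from the genotype labels, with replicates numbered in accession order. In limma 3.58.1 (R 4.3.3), lmFit and eBayes fitted the means of the 3 groups on 8 arrays, leaving 5 residual degrees of freedom, for 4 contrasts, with Benjamini-Hochberg adjustment over all genes. P-values on genes come from this fit, or from an alternative fit where the text names one. The fit was also run on simulated data, and no conclusion on the p-values of these arrays is drawn from that. Intervals of differences are at 95% and unadjusted. The keratins and gene lists were chosen with earlier results of these data known. Named were the simple keratins, every keratin that passed in any contrast, the 8 other keratins with the highest mean, the 5 largest differences each way, and up to 4 genes per other list by smallest adjusted p. Genes outside this rule (Krt1, Krt74, Krt222, Epcam, Cdh1, Cdx1, Calm4, Sprr3, Trp63, Lor, Wt1, Upk3b and Cdkn2a among them) were chosen as pairs, cell markers or checks, or after their values were seen. Promoters came from RefSeq tables.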

Additional observations from a re-analysis of the deposited data

Results flagged for a closer look

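Within the 5 AOM arrays, each keratin's highest and lowest array was set against its nearest neighbour, relative to the whole range (Dixon's ratio, critical value 0.71). A single array stood apart for 6 of 48 keratins (12.5%), against 5.28% of all genes, and chance gives about 1 in 20 groups. The group joins both AOM genotypes. Krt35 was 6.48 on LSL AOM replicate 2 with the next array at 3.16. Krt87 was 6.54 and Krt86 4.06 on K-rasG12Dint AOM replicate 3, with the next arrays at 4.87 and 2.45. All 3 are hard keratins of hair and nail. Krt2, an epidermal keratin, was 2.62 and Krt28, of the inner root sheath, 2.56 on LSL AOM replicate 2, with the next arrays at 2.31 and 2.12, and Krt74, of the inner root sheath, was low at 1.67 on LSL AOM replicate 1 with the next at 2.09. These last 3 were below the array median on all 8 arrays.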

How the results depend on the processing

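No paired analysis was possible because the labels give the groups no shared replicate numbers. Between serrated and AOM tumors, 4 keratins passed, and 18 did with array weights estimated gene by gene and 2 with quantile normalization; leaving out each array gave 1 to 5. Those weights were 3.15 for serrated replicate 2 and 0.24 and 0.38 for replicates 1 and 3, and 5759 genes passed with them against 1871. Weights by restricted maximum likelihood did not converge and were not used. Against K-rasG12Dint AOM tumors, 4 passed, 16 with array weights, 2 with array medians subtracted and 2 with only the groups compared in the fit; leaving out each array gave 1 to 5. Against LSL AOM tumors, 1 passed, 10 with array weights, and 2, Krt20 being added, with limma-trend, with the dimmest 40% of genes left out and with only the groups compared; leaving out each array gave 1 to 4. Between the AOM groups 0 passed, and leaving out each array gave 0 to 1. The cause of these changes was not tested. Leaving out an LSL AOM array leaves 1, which is assumed to vary like the other groups. Without serrated replicate 2, 643 genes passed in place of 1871.

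For the 24 named keratins in 4 contrasts, 96 differences had 1496 alternative values. Of these 1407 kept their side of the threshold, 37 lost a call, 52 gained one, and 0 changed sign past the threshold on either side; 63 of the alternative values changed sign without being past the threshold on either side, the largest of them from a difference of 1.45 (Krt4 against LSL AOM tumors). Krt36 kept its calls in the alternatives run. Krt84 and Krt90, called against K-rasG12Dint AOM tumors, were each lost in 8 of 16, with adjusted p up to 0.156 and 0.150 in limma. Krt79 and Krt27 lie among the dimmest 40% of genes and have no value without those.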

Other observations

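Keratins whose symbols end in a letter were set aside by the choice of members. Krt6a, a wound keratin partner of Krt16 and Krt17, had log2 levels of 3.71, 6.55 and 2.27 in serrated tumors, 2.43, 5.89 and 4.68 in K-rasG12Dint AOM tumors, and 2.34 and 3.81 in LSL AOM tumors. Krt6b had levels of 3.26, 5.46 and 2.77 in serrated tumors, 2.85, 6.46 and 3.24 in K-rasG12Dint AOM tumors, and 2.43 and 2.85 in LSL AOM tumors. Both were high on serrated replicate 2 and K-rasG12Dint AOM replicate 2, as Krt5 was, and neither passed between serrated and AOM tumors (limma, adjusted p = 0.798 and 0.790). The 2 genes are close copies, so their levels are uncertain. Krt33a, a hair shaft keratin, was 4.98 on K-rasG12Dint AOM replicate 3, the array on which Krt84, Krt86, Krt87 and Krt90 were highest, and 1.66 to 3.04 on the other arrays. Krt33b lay between 5.19 and 6.03 on all 8.

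Regulators known for hair and nail keratins were read as well. Lef1, a factor of hair shaft keratin genes in mouse skin, had levels of 3.94, 4.25 and 4.04 in serrated tumors, 5.93, 6.31 and 5.92 in K-rasG12Dint AOM tumors, and 6.39 and 6.53 in LSL AOM tumors, and fell by 2.18 in serrated tumors (limma, SE 0.16, adjusted p = 0.000236). Hoxc13, a homeobox factor of hair and nail, and Foxn1, a forkhead factor of hair and nail, were below the array median on all 8 arrays and differed by 0.26 ± 0.16 and -0.34 ± 0.24 (limma, adjusted p = 0.357 and 0.417). These genes were chosen after earlier results of these data were seen, and their part in the keratin differences was not tested.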
